A study of Mus musculus with 2 samples.

Results

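The oligoadenylate synthetase family of the mouse was described in nuclear RNA of macrophages through 8 listed genes, Oas1a, Oas1b, Oas1c, Oas1g, Oas2, Oas3, Oasl1 and Oasl2, out of 55536 genes in the gene tables. The genes were chosen by name, and all 8 symbols matched 1 gene identifier each. The samples were bone marrow-derived macrophages, which are primary macrophages grown from bone marrow, of the strain C57BL/6J. They had been treated with 100 ng/ml of Lipid A, the lipid of bacterial lipopolysaccharide and an agonist of Toll-like receptor 4, for 12 hours, kept without it for 12 hours and given 100 ng/ml of Lipid A again for 20 minutes. Ribosomal RNA-depleted RNA of the nuclear fraction, called nucleoplasmic in the sample description, was sequenced in 2 libraries. The libraries form 1 group, so no level could be set against untreated cells and no response to Lipid A was measured. Replicate 1 was made from 1 µg of RNA and replicate 2 from 500 ng, so that input and replicate cannot be told apart. Both carry the same donor identifier, sex and age were not collected, and the labels do not say if each culture had its own animal, so the spread between the libraries may be technical.

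Oligoadenylate synthetases are sensors of double-stranded RNA. On binding it, the active enzymes join ATP into 2′-5′-linked oligoadenylates, called 2-5A, and these switch on a latent endoribonuclease that cleaves viral and cellular RNA. Their genes are classical interferon-stimulated genes, and in macrophages interferon beta made after Toll-like receptor 4 signalling is a well known inducer of them. The mouse has many Oas1 copies where humans have a single OAS1 gene, and not all of the copies make 2-5A.

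Replicate 1 had 21954179 expected counts over all genes, against 17739520 for replicate 2, and a count of 3, taken as the limit of detection, stood for 0.137 and 0.169 CPM (counts scaled to the same library total). The libraries differed well beyond sampling noise, with a chi-square of 91.3 per degree of freedom over 14347 genes, and so were not the same library deposited again. All 8 macrophage markers examined were present at 1 TPM or more, with a median of 124 TPM (TPM is an estimated count divided by transcript length and scaled to the same total in each library). Adgre1, which encodes F4/80, had 562 TPM in replicate 1, against 510 TPM in replicate 2. Of the markers of other cells, 1 of 6 neutrophil, 0 of 5 dendritic, 0 of 5 lymphoid, 1 of 4 stromal and 1 of 4 erythroid and mast cell genes reached a mean of 1 TPM, none with a mean above 1.55 TPM. Their summed TPM in replicate 1 and replicate 2 was 1.84 and 2.62 for neutrophil, 1.90 and 2.06 for dendritic, 0.06 and 0.42 for lymphoid, 1.59 and 1.95 for stromal, and 1.90 and 1.12 for erythroid and mast cell markers. Ly6g, Elane, Cd3e, Nkg7 and Cpa3 were at 0 in both libraries. The nuclear RNAs Malat1 and Neat1 were abundant, with 16332 TPM in replicate 1, against 28092 TPM in replicate 2 for Malat1, and 856 and 879 TPM for Neat1.

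The 8 genes lie on chromosome 5 in 2 groups (assembly mm10, GENCODE M21). Oasl2 (chr5:114896936-114912234, plus strand) and Oasl1 (chr5:114923240-114937915, plus strand) together span 40980 bases. The other 6 lie within 177189 bases, in the order Oas2 (chr5:120730333-120749853), Oas3 (chr5:120753098-120777661), Oas1c (chr5:120800194-120812514), Oas1b (chr5:120812635-120824163), Oas1g (chr5:120876142-120887613) and Oas1a (chr5:120896256-120907521). Of these 6, Oas1b alone is on the plus strand. Oas1c and Oas1b start head to head, with 120 bases between their annotated starts. The stretches before the starts are shown because Oas1a, Oas1g, Oas1b and Oas1c have a block there that was not found in the windows of Oas3, Oasl1 and Oasl2. The pattern GAAA, any 2 bases, GAAA is the core of the interferon-stimulated response element, and it was searched on both strands in the RefSeq windows of 300 bases around gene starts (assembly GRCm38.p6), where 6 of the 8 members have an entry (all but Oas1b and Oas2). Capitals mark every match, every stretch lies outside annotated exons, and each line is read 5′ to 3′ toward the gene, the third toward Oas1b.
Oas1a, chr5:120907526-120907645, minus strand: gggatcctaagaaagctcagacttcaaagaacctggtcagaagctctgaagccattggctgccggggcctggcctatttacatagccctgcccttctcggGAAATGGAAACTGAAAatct
Oas1g, chr5:120887614-120887733, minus strand: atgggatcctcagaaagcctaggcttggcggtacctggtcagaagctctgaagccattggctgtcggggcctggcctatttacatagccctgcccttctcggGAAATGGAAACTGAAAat
Oas1b and Oas1c, chr5:120812515-120812634, plus strand: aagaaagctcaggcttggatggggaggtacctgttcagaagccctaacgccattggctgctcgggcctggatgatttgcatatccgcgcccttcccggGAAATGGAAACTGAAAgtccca
Oas3, chr5:120777662-120777781, minus strand: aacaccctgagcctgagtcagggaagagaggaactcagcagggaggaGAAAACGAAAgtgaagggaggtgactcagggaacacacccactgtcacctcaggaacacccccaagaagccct

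The pattern occurred in 4 of the 6 members with a window, Oas1a, Oas1g, Oas1c and Oas3, and in 3.44% of all 32851 windows. In Oas1a, Oas1g and Oas1c a pair of matches overlapped into a longer block, with GAAA 3 times and any 2 bases between, which was present in 38 of all windows, or 0.116%. The 16 bases of the block were the same in all 3, and they occurred in 7 windows of 5 genes, the others being Apol9a and Apol9b (named after this search was seen). The whole windows of Oas1a and Oas1g were 85.5% identical, so matches in these gene copies are not independent of each other. In Oas1a the block ran from base −20 to base −5 before the start, and in Oas1g from −18 to −3. In the stretch between Oas1c and Oas1b it lay far from the start of Oas1c, at −114 to −99, and on its opposite strand. Counted toward Oas1b, it lay at −22 to −7, the same strand and nearly the same distance as in Oas1a and Oas1g. The start of Oas1b was that of GENCODE, and those of Oas1a and Oas1g were of RefSeq. The sources differ for Oas1a, with the start at 120907525 in RefSeq and 120907521 in GENCODE. Oas3 had its match at −75 to −66. Neither the Oasl1 nor the Oasl2 window held a match, and of the Oas1 copies outside the 8, Oas1f and Oas1h have windows and held none. TTCNNNGAA, a core bound by STAT dimers, occurred in 1 of the 6 members, Oas1a, at −98 to −90, and in 8.30% of all windows. These are matches of letters in a fixed window, and no binding was measured.

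All 8 genes were detected at a mean of 1 TPM or more, a level that 23.3% of all genes and 45.6% of protein-coding genes reached. Their RNA summed to 1122 TPM in replicate 1, against 1062 TPM in replicate 2 (mean 1092 ± 42.5 TPM, SD, n = 2). The median member had 109 TPM, and the median of the 12952 genes at 1 TPM or more was 6.94 TPM. Of the 8 members, 5 were at 100 TPM or more, and 3.42% of the genes at 1 TPM or more were. The family took 71520 of the expected counts in replicate 1 and 48013 in replicate 2, or 0.326% (95% Wilson interval 0.323 to 0.328%) and 0.271% (0.268 to 0.273%). These intervals cover counting error only, since the reads carry no molecular identifiers in the tables. In bulk RNA a smaller number of cells with the RNA and less RNA per cell cannot be told apart.

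**Figure D1:**
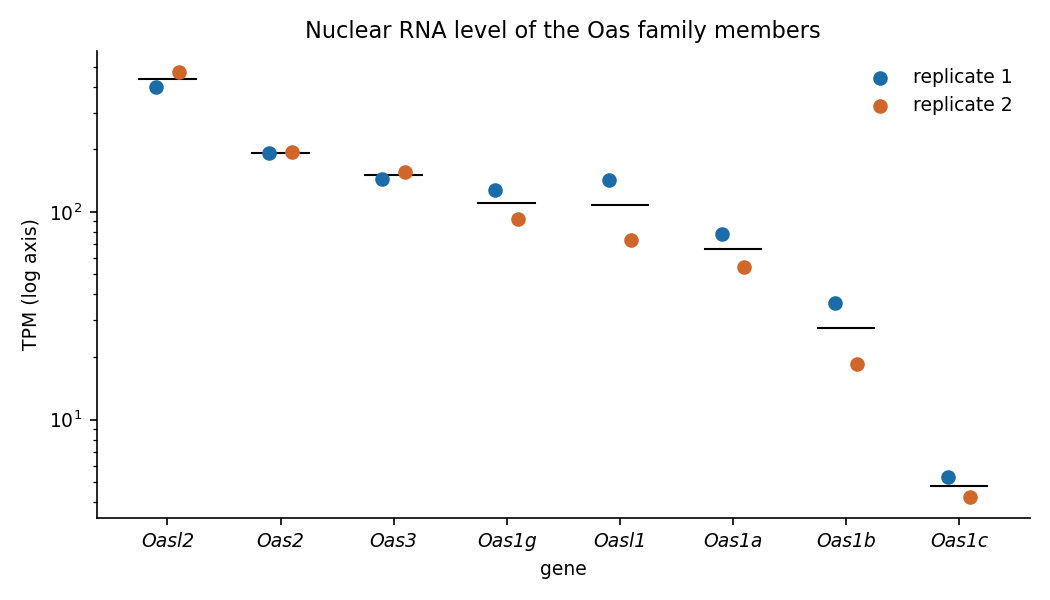
TPM of each of the 8 genes on a log axis, with a point for replicate 1 and a point for replicate 2 and a bar at their mean. Oasl2 is highest at 435 TPM and Oas1c lowest at 4.79 TPM, and the range of Oasl1 overlaps those of Oas1g and Oas1a.

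The 5 genes of enzymes that make 2-5A supplied most of this RNA, all transcript classes together. For Oasl2 and Oas1g most of it was assigned to transcripts outside the coding class, as given below. Oas1a, Oas1g, Oas2, Oas3 and Oasl2 together had 939 TPM in replicate 1, against 966 TPM in replicate 2, or 83.7% and 90.9% of the family. Oas1b, Oas1c and Oasl1, the members without 2-5A synthesis, had 183 and 96.4 TPM, or 16.3% and 9.07%. These sums do not stand for each member, since the TPM ratio of replicate 1 to replicate 2 was 1.45 for Oas1a and 1.37 for Oas1g, both active, and 1.25 for Oas1c, which is not.

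Oasl2 in the mouse both makes 2-5A and carries ubiquitin-like domains. By gene, all transcript classes together, it was the highest, with 399 TPM in replicate 1, against 471 TPM in replicate 2 (mean 435 ± 51.0 TPM). It stood at the 99.2 percentile of the genes at 1 TPM or more. Oas2, whose product has a pair of synthetase units, had 191 and 194 TPM (192 ± 1.75 TPM), from 19947 and 13820 counts. Oas3, the longest family enzyme and in human cells the main source of 2-5A during viral infection, had 144 and 155 TPM (150 ± 7.54 TPM). The ranges of these 3 genes did not overlap with each other or with any lower member.

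Oas1g, an active Oas1 copy, had 127 TPM in replicate 1, against 92.6 TPM in replicate 2 (109.8 ± 24.3 TPM). Oas1a, the other active Oas1 copy of the 8, had 78.1 and 54.1 TPM (66.1 ± 17.0 TPM). Oasl1, known in the mouse for holding back translation of Irf7 mRNA, had 142 and 73.5 TPM (107.5 ± 48.1 TPM). Its range covered that of Oas1g and reached into that of Oas1a, so that Oasl1 and Oas1g changed places between the libraries. Both Oas1g and Oasl1 were above Oas1a in each library.

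Oas1b encodes the flavivirus resistance protein in wild mice, and laboratory strains such as C57BL/6 carry an allele with an early stop codon. Its gene is annotated as a polymorphic pseudogene. It had 36.5 TPM in replicate 1, against 18.6 TPM in replicate 2 (27.5 ± 12.7 TPM), below the members already described in both libraries. Oas1c, which lacks 2-5A synthesis and shares its start region with Oas1b, had 5.31 and 4.26 TPM (4.79 ± 0.742 TPM) from 299 and 181 counts. It was the lowest member, at the 39.3 percentile. The genes that start head to head with 120 bases between them thus differed in RNA level, Oas1b being higher than Oas1c in both libraries.

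The remaining Oas1 copies of the cluster were lower than all 8 members in both libraries. Oas1f had no count in either library, and Oas1d and Oas1e had 1 count in replicate 1 and 0 in replicate 2, all under the limit of 3 counts. Oas1h had 66 and 24 counts, or 1.48 and 0.79 TPM. Flanking protein-coding genes, the nearest 3 on each side of each group, were lower than 7 of the 8 members. The highest were Sppl3 at 13.9 TPM, 1500011B03Rik at 9.72 TPM, Ptpn11 at 8.96 TPM and 2210016L21Rik at 4.38 TPM, the last of these close to Oas1c, whose range overlapped its own, and the other 8, Oas1d among them, were at 0.085 TPM or less.

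**Figure D2:**
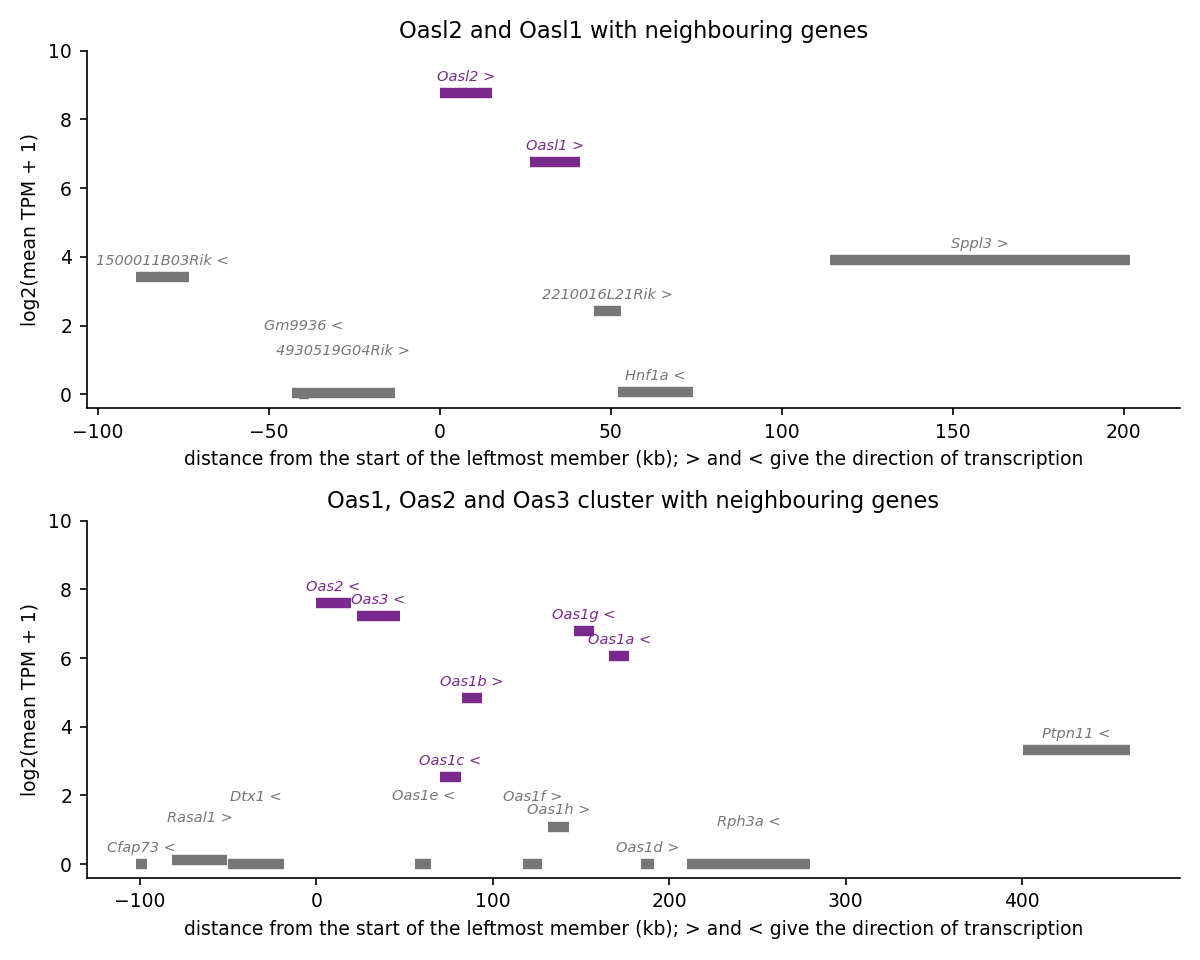
Mean level of each protein-coding gene and of Oas1b, as log2(mean TPM + 1), drawn at its place in kb from the leftmost member of each chromosome 5 group, with the 8 genes in purple and neighbours in grey. Members lie at 4.79 TPM or more, and the neighbours, Oas1 copies included, at 13.9 TPM or less.

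Reads of similar copies can be split in error, so the sharing of sequence was measured. Oas1a and Oas1g shared 1057 stretches of 50 bases, 57.6% of those of Oas1a and 45.2% of those of Oas1g, and the coding transcripts Oas1a-201 and Oas1g-201 were 90.7% identical. The deposited posterior SD of the count, which reflects uncertainty in assigning reads, was 21.28 counts in replicate 1 and 13.10 in replicate 2 for each of these genes. That is small beside their 3910 and 1845 counts (Oas1a) and 4323 and 2107 counts (Oas1g), but the split between the copies is an estimate. The posterior SD was 0 for Oas2, Oas3, Oasl1, Oasl2 and Oas1b, and 0.48 and 0.16 counts for Oas1c. Oas1c shared 15.1% of its stretches with other genes, including 149 with Oas1e, 68 with Oas1d, 35 with Oas1f and 154 with Gm43069 on the opposite strand. The shared part was 2.98% for Oas1b and 0.521% or less for Oas2, Oas3, Oasl1 and Oasl2. Genes on the opposite strand also overlap members, and the sources used here do not state that strand was used in counting. Gm13822 overlaps 38 exon bases of Oasl1 and had 38 and 10 counts, and Gm43069 overlaps 227 exon bases of Oas1c and had 10.2 and 1.02 counts. Gm43068 lies within Oas2 with no exon overlap and had 217 and 148 counts. In each case this was at most 3.42% of the counts of the member.

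The transcript tables split the family by the kind of RNA annotated. In the alignment-based transcript table, protein-coding transcripts held 49.5% of the family's TPM in replicate 1 and 45.3% in replicate 2, although they held 70.1% and 67.4% of its counts, which are not divided by length. Transcripts annotated with a retained intron held 26.7% and 32.5% of TPM, and those annotated as targets of nonsense-mediated decay held 19.9% and 20.5%. Oasl2 and Oas1g held most of the TPM outside coding transcripts.

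Oasl2 was mostly assigned to transcripts that do not encode the full protein. Its protein-coding transcripts held 9.74% of its TPM in replicate 1 and 7.55% in replicate 2. Transcripts with a retained intron held 54.3% and 57.3%, and the nonsense-mediated decay transcript Oasl2-205 held 35.9% and 35.2%. In TPM, Oasl2-205 had 143 and 166, the retained-intron transcript Oasl2-208 had 79.9 and 113.6, and the coding transcript Oasl2-201 had 36.6 and 28.0. By counts, without division by length, coding transcripts held 18.0% and 12.3% of the gene. Over 8220 protein-coding genes at 1 TPM or more with more than 1 transcript class, the median coding share was 70.3% in replicate 1 and 67.9% in replicate 2, and 1.57% and 2.73% of these genes were at or under the share of Oasl2. These genes need not have an annotated retained-intron or nonsense-mediated decay transcript. The part of annotation in this ranking was not tested.

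Oas1g had the same kind of split. Its coding transcript Oas1g-201 had 13.5 TPM in replicate 1, against 12.0 TPM in replicate 2, which was 10.6% and 12.9% of the gene. Its nonsense-mediated decay transcript Oas1g-203 had 79.9 and 52.0 TPM, or 62.9% and 56.1%, and the retained-intron transcript Oas1g-202 had 33.6 and 28.6 TPM. Of the 8220 genes, 1.73% in replicate 1 and 3.94% in replicate 2 were at or under its coding share, with the same limit on annotation. On coding transcripts alone Oas1a, which has a single annotated transcript and therefore 100% in the coding class, was higher than Oas1g in both libraries, the reverse of their order by gene. Reads of Oas1a from unspliced RNA or from RNA of the nonsense-mediated decay kind have no annotated transcript of that class to be assigned to. Its share therefore carries no such information, and the reversed order cannot be told apart from this difference in annotation.

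Oas2 and Oas3 were almost wholly assigned to coding transcripts, at 96.1% and 93.5% of TPM for Oas2 and 93.9% and 95.3% for Oas3. Oas2, Oas3 and Oasl1 have annotated retained-intron transcripts but no annotated nonsense-mediated decay transcript. Their shares therefore carry no information on the latter class. Oas2-201 had 158.7 TPM in replicate 1, against 159.1 TPM in replicate 2, and Oas3-201 had 121.7 and 140.5 TPM. Oasl1 was between, with 71.0% and 63.4% in coding transcripts, mainly Oasl1-202 at 97.0 and 44.9 TPM, and 23.3% and 36.6% in the retained-intron transcript Oasl1-204 at 32.9 and 26.9 TPM. Oasl1-204 differed less between the libraries than the coding one. Oas1c was at 100% in coding transcripts, but it has no annotated retained-intron or nonsense-mediated decay transcript. Its share therefore carries no information on those classes.

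For Oas1b the transcript annotated as protein-coding, Oas1b-201, was at 0 in both libraries in both kinds of transcript table. The RNA was assigned to Oas1b-203, annotated as a polymorphic pseudogene, with 27.1 TPM in replicate 1, against 14.5 TPM in replicate 2, and to the processed transcript Oas1b-202 with 9.39 and 4.13 TPM. Oas1b-201 and Oas1b-203 differ by 11 edits over 1840 aligned positions, an identity of 99.4%, and the posterior SD of Oas1b-201 was 8.37 and 13.73 counts.

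**Figure D3:**
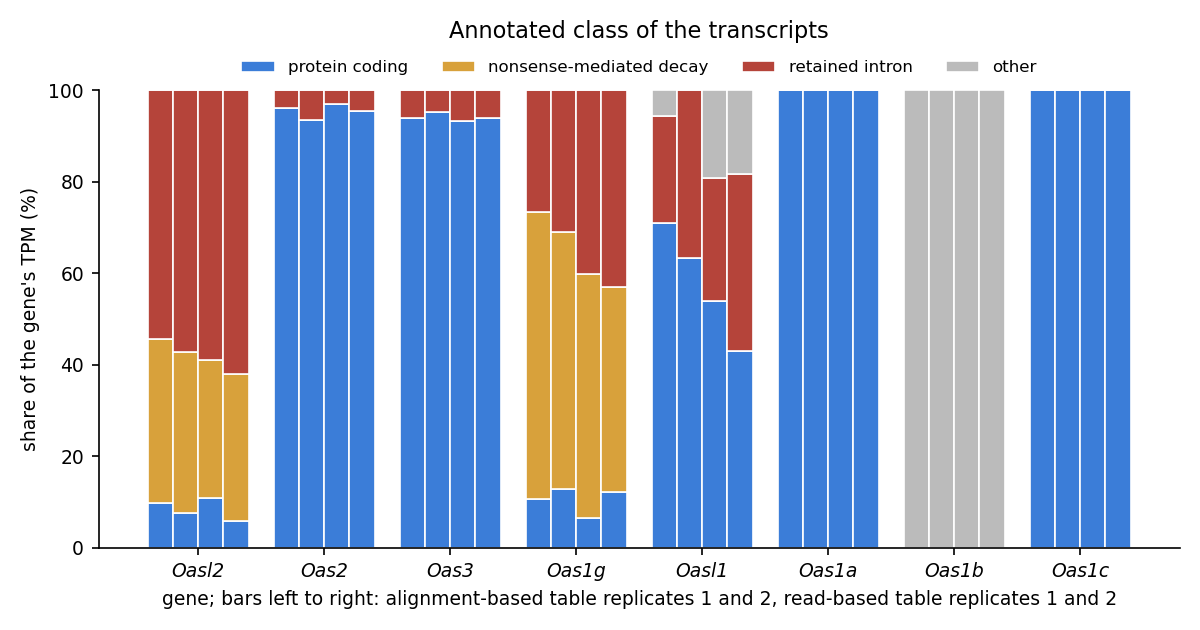
Share of each gene's TPM, in percent, in transcripts annotated as protein coding, nonsense-mediated decay, retained intron or other, with 4 bars a gene for replicates 1 and 2 of the alignment-based table and of the read-based table. Oasl2 and Oas1g have 13% or less in coding transcripts in all 4 bars, and Oas2 and Oas3 have over 93%. Only Oasl2 and Oas1g have an annotated nonsense-mediated decay transcript.

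The authors' further transcript table, made from the reads without that alignment, gave the same order of the 8 genes by mean TPM when summed to genes, and in replicate 2. In replicate 1 of that table Oas3 (35.9 TPM) was below Oasl1 (45.6 TPM) and Oas1g (43.6 TPM), and Oas1a (20.3 TPM) was just below Oas1b (20.7 TPM). Its TPM values were lower for each member in both libraries, except for Oas1b in replicate 2 (29.3 TPM), with a family sum of 323 TPM in replicate 1, against 684 TPM in replicate 2. The median log2 ratio of its TPM to the gene table's was −1.75 and −0.52 over the members and −1.20 and −0.34 over all genes, so its scale differed between the libraries for the whole transcriptome. The coding share was 11.0% and 5.89% for Oasl2, 6.61% and 12.3% for Oas1g, 97.0% and 95.4% for Oas2, and 93.3% and 93.9% for Oas3. It was lower for Oasl1, at 53.8% and 43.1%, and the read-based table placed 19.0% and 18.2% of that gene on the processed transcript Oasl1-203, which held 0.16% and 0% in the alignment-based table. Within Oas2 the read-based table placed 25.1% and 24.0% of TPM on Oas2-202, against 9.18% and 8.85% in the alignment-based table, so the balance of the coding isoforms of Oas2 depended on the quantification. Within Oas1b it placed 57.5% and 61.8% on Oas1b-202, against 25.7% and 22.2% in the alignment-based table.

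The libraries were compared as replicate 1 over replicate 2 on the log2(TPM + 1) scale. TPM as deposited was lower in replicate 1 for most genes, with a median shift of −0.29 over genes at 1 TPM or more, and values below are relative to this median unless said otherwise. With 1 library a side there is no test. After centring, all 8 members were higher in replicate 1, with a median of 0.65 and an SD of 0.45 over members, where 50% of all genes are higher by construction. Without centring 5 of the 8 were higher, with a median of 0.36, beside 27.8% of all genes. The SD over all genes was 0.71, and the central 95% of genes lay between −1.04 and 1.30, a range that held every member.

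Oasl1 and the Oas1 copies differed more than Oas2, Oas3 and Oasl2. Oasl1 and Oas1b were over 2-fold higher in replicate 1, at 1.22 each, and 4.51% of genes passed that fold in that direction. No member was over 2-fold lower, and 2.78% of genes were. Oas1a differed by 0.81, Oas1g by 0.74 and Oas1c by 0.55. Oas2 differed by 0.27, Oas3 by 0.19 and Oasl2 by 0.05, and without centring these 3 were slightly lower in replicate 1, at −0.02, −0.10 and −0.24. The read-based table gave 6 of 8 higher in replicate 1 after centring, a median of 0.49 and none over 2-fold in either direction, where 3.09% of genes were over 2-fold higher and 1.74% over 2-fold lower. Oasl2 and Oas3 were then lower, at −0.22 and −0.10. The part of RNA input in these differences was not tested.

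**Figure D4:**
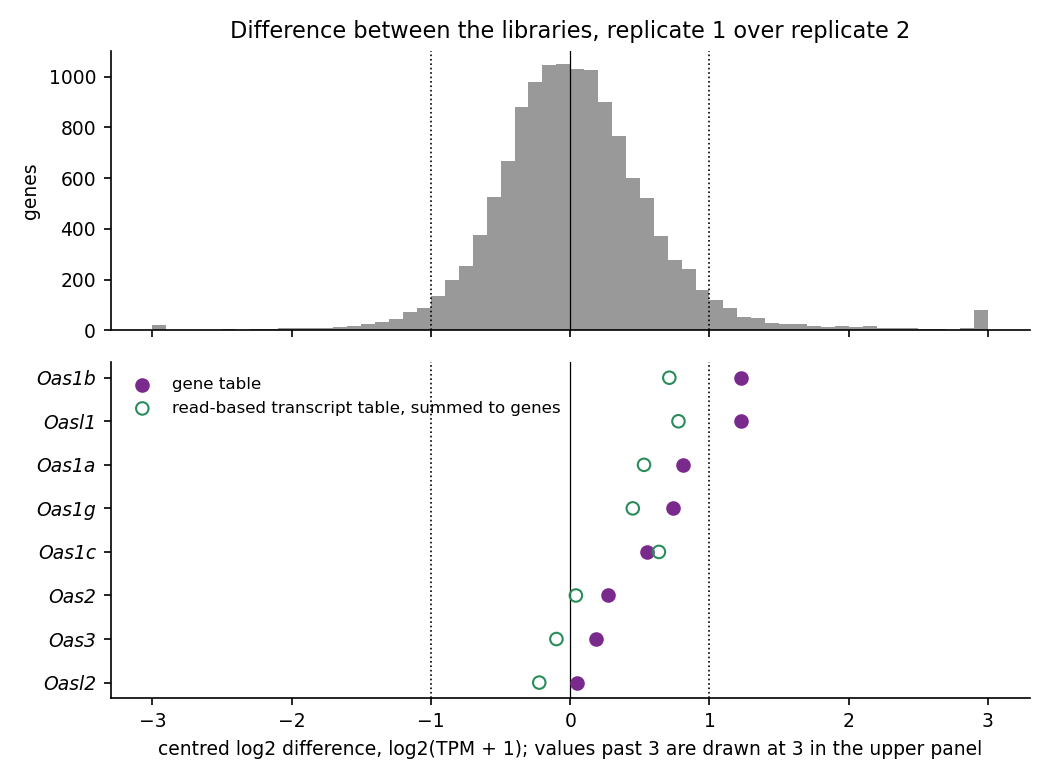
Upper panel, number of genes by centred log2 difference of replicate 1 over replicate 2, over the 12952 genes at 1 TPM or more, and lower panel, the same difference for each member in the gene table (filled) and in the read-based table summed to genes (open). Dotted lines mark 2-fold, which Oasl1 and Oas1b pass in the gene table and no member passes in the read-based table.

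Genes that act with the family were also present. Of the 3 genes that end the signal, the phosphodiesterases Pde12 and Akap7 degrade 2-5A, and Abce1, a ribosome recycling factor, is known as an inhibitor of the endoribonuclease. Abce1 had 10.6 TPM in replicate 1, against 20.3 TPM in replicate 2, Akap7 had 6.86 and 11.2 TPM, and Pde12 had 1.62 and 3.18 TPM. All 3 were below the 5 active enzymes in both libraries. After centring 0 of 3 were higher in replicate 1, with a median difference of −0.39, beside 50% of all genes by construction.

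All 9 other genes for binding or sensing double-stranded RNA were at 1 TPM or more, with a median of 76.3 TPM. That level was reached by 45.6% of protein-coding genes. Ddx58, which encodes RIG-I, had 154 TPM in replicate 1, against 125 TPM in replicate 2. Zbp1, a sensor of left-handed nucleic acid, had 136 and 115 TPM, and Eif2ak2, the kinase PKR, had 83.0 and 80.7 TPM. All 9 were higher in replicate 1 after centring, with a median difference of 0.43, where 50% of all genes are higher by construction. None was over 2-fold apart, where 4.51% of all genes were over 2-fold higher and 2.78% over 2-fold lower. Without centring 8 of the 9 were higher, beside 27.8% of all genes. Cgas, whose product makes a cyclic dinucleotide with a fold related to the synthetases, had 6.56 and 5.53 TPM and a difference of 0.50.

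All 11 genes of interferon signalling were at 1 TPM or more, beside 45.6% of protein-coding genes, with a median of 50.1 TPM. Irf7, a factor that drives interferon genes, had 535 TPM in replicate 1, against 249 TPM in replicate 2. Stat2, a subunit of the interferon-activated transcription factor that also holds Irf9, had 275 and 210 TPM. Of the 11, 10 were higher in replicate 1 after centring, with a median of 0.67, beside 50% of all genes by construction. Of these, 2 were over 2-fold higher, Irf7 at 1.39 and Ifnb1 at 1.33, beside 4.51% of all genes. Without centring 8 of the 11 were higher, beside 27.8% of all genes. Ifnb1, the gene of interferon beta, was named after its value was seen, and had 5.59 and 2.20 TPM from 90 and 24 counts. The direction of the differences of these lists is set by the same pair of libraries as that of the members, and adds no separate evidence.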

How the data were processed

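RNA of the nuclear fraction, depleted of ribosomal RNA, was measured in 2 libraries of 1 group, grouped and numbered by the labels. Assembly mm10 and GENCODE M21 underlie the tables, per text files that the authors deposited. For the aligner, the quantifiers and the use of strand, details were not given in the sources used here. Deposited gene and transcript tables derived from a transcriptome alignment hold expected counts, which are estimates with decimals, and TPM, per the file headers. The deposited posterior SD of the count gives the spread over read assignments, and the deposited isoform percent gives how a gene's TPM divides over its transcripts, per the file headers. A further deposited transcript table, derived from the reads, holds TPM beside estimated counts, per the file headers. It was summed to genes here.

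The main values were the TPM and expected counts of the gene tables. Depth was 21954179 and 17739520 expected counts in replicates 1 and 2. Differences were log2((TPM + 1) in replicate 1 over that in replicate 2) minus the median over genes with a mean of 1 TPM or more, and over 2-fold was called. With 2 libraries of 1 group no test was possible. The calculation was tested on simulated counts that held sampling noise only. The real libraries differed by more than that, so the simulation checks the arithmetic and gives no error rate for the 2-fold calls. Sequence stretches of 50 bases and transcript alignments came from GENCODE M21 transcripts, and promoter windows from RefSeq (GRCm38.p6). Python 3.11.15, numpy 2.4.6, pandas 2.3.3, scipy 1.17.1, matplotlib 3.10.9 and, for TMM factors, R 4.3.3 with edgeR 4.0.16 were used.

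All 8 members are named, and from each other list up to 3 of the 3 highest genes by mean TPM, with the nearest 3 protein-coding genes on each side of each locus and further genes only by counts or where said. Members, lists and comparisons were chosen with earlier results of these data known. The endoribonuclease that 2-5A activates is not reported here. Alternatives tried were pseudocounts of 0.1 and 5, no centring and other centring sets, the further transcript table, CPM, TMM scaling, TPM without mitochondrial genes and genes under 200 bases, and leaving out each replicate.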

Additional observations from a re-analysis of the deposited data

How the results depend on the processing

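No paired analysis was possible because there is only 1 group. All 8 genes stayed at 1 TPM or more in the further transcript table, in TPM without mitochondrial and short genes, and in either library alone. The summed TPM was 504 in the further transcript table and 1349 without mitochondrial and short genes, against 1092, and ranged from 1062 to 1122 when a replicate was left out. The median level, 6.78 as log2(TPM + 1), was 5.83 in the further transcript table and 7.52 as CPM, which is not divided by length,, and ranged from 6.38 to 7.08 when a replicate was left out. By CPM Oas2 was above Oasl2 in the mean and in replicate 1 (909 and 813 CPM), and below it in replicate 2 (779 and 791 CPM). The coding share of the family's TPM, 47.4% on average, was 42.2% in the further transcript table and ranged from 45.3 to 49.5% when a replicate was left out. The median difference between the libraries kept its direction in all 9 alternatives. The number of members over 2-fold apart, 2 as reported, was 1 with a pseudocount of 5, and 0 both without centring and in the further transcript table. In those 3 settings Oas1b was under 2-fold, and in the last of them and without centring Oasl1 was too. The number higher in replicate 1, added after the data were seen, was 5 without centring, against 8, and 6 to 8 otherwise. The cause of these changes was not tested. Depth limits Oas1c most, at 299 and 181 counts, and the copies under 3 counts cannot be told from 0.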
